A study of Saccharomyces cerevisiae with 8 samples.

Results

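Independent inductions of the yeast state [SMAUG+] were compared: the 2 cultures of inductant 1 with the 2 cultures of inductant 2, that is 4 of the 8 RNA-seq libraries of the series. The 4 libraries were chosen by their titles, and every row of the expression tables was used. The comparison itself was chosen with earlier results of these data known. All strains were laboratory haploids of the BY4741 background (Saccharomyces cerevisiae). The inductants were wild type in genotype and had gone through 48 h of transient VTS1 overexpression from a plasmid. The plasmid was then eliminated and the cells were passaged for several generations before RNA was taken. The 2 naive libraries came from wild type without the overexpression, and the 2 libraries of the deletion group from vts1 deletion cells without it. Every culture had a volume of 50 ml and was harvested at mid-exponential phase (OD600 about 0.6), and rRNA was removed from total RNA with Ribo-Zero. Each induction was thus represented by 2 biological replicates of 1 induced lineage. A p-value here sets a difference against the spread between replicate cultures, estimated from all 8 libraries, the naive and deletion pairs included. The difference between independent inductions cannot be told apart from the difference between these lineages.

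Vts1 is the yeast Smaug protein. It binds hairpins in messenger RNA through its SAM domain and brings the deadenylation machinery to the transcripts it binds. [SMAUG+] is a heritable, protein-based state that appears after a passing excess of Vts1 and persists once the extra protein is gone. Because the state is carried by protein rather than by a DNA change, independent inductions can be compared as parallel isolates of the same state. In yeast, a pair of large gene groups usually moves with growth rate, nutrient supply and stress: the stress-defence genes driven by Msn2 and Msn4, and the genes for ribosomal proteins. Protein kinase A represses the former and favours the latter.

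The libraries held 18431474 to 27501966 estimated counts, and each had 317 to 336 rows at 0 out of 6713. VTS1 had 490 and 650 counts in inductant 1 against 794 and 594 in inductant 2, with naive at 472 and 488 and the deletion at 0 and 2. Scaled to library size (CPM), VTS1 stood at 24.7 and 24.98 in inductant 1, at 36.3 and 29.5 in inductant 2 and at 22.5 and 19.9 in naive. The inductants did not overlap, and the log2 difference was 0.41 ± 0.15 (SE), with an adjusted p of 0.234 in edgeR's quasi-likelihood test and a 95% interval of 0.08 to 0.74. Against naive, in the same test, VTS1 gave 0.23 in inductant 1 (adjusted p = 0.394) and 0.64 in inductant 2 (adjusted p = 0.0248). LEU2, MET17 and URA3, which BY4741 lacks, were at 0 in all 8 libraries. Of the MATa markers, STE2 was at 155 to 214 TPM, a unit that also corrects for length. STE6, BAR1 and AGA2 were at 43.7 TPM or more in every library, but ASG7 was only at 8.84 to 12.5. Of the MATalpha genes, the receptor gene STE3 lay at 3.53 to 4.11 TPM and MF(ALPHA)1 at 0.131 to 0.549. SAG1, at 9.34 to 12.5 TPM, and MF(ALPHA)2, at 6.91 to 17.05, overlapped ASG7, so not every marker separated the mating types. The short genes MFA1, MFA2 and ATP8 were listed at 0 in every library. COX1, COX2, COX3 and COB transcripts of the mitochondrial genome were present in all 4 inductant libraries. Across 5841 genes with a mean count of 50 or more, the median absolute log2 difference between replicates was 0.10 in inductant 1 and 0.10 in inductant 2, against 0.15 in naive and 0.07 in the deletion. Between the inductants, the fitted difference between means of 2 cultures had a median absolute value of 0.11. A mean of 2 cultures varies less than a single culture, so this value cannot be set directly against the replicate values.

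Against that background, most of the genes that separated the inductants were lower in inductant 2. The general stress list held more of these lower genes than any other list (9 of 48, against 0.401% of all genes tested). It was assembled with earlier results of these data known, so this rank is no independent evidence. Of 6230 genes tested, 28 (0.449%) passed an adjusted p of 0.05: 25 were lower in inductant 2 (0.401%) and 3 were higher (0.0482%). The libraries of the inductants did not overlap for any of the 28, whereas 49.3% of all genes tested were free of overlap. The median absolute log2 difference of the 28 was 0.57, and 12 of them, all lower in inductant 2, differed by more than 1.5-fold. Another 13 genes, 7 lower and 6 higher, had an adjusted p between 0.05 and 0.06. At an unadjusted p under 0.05 there were 516 genes lower in inductant 2 (8.28%) and 448 higher (7.19%).

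**Figure D1:**
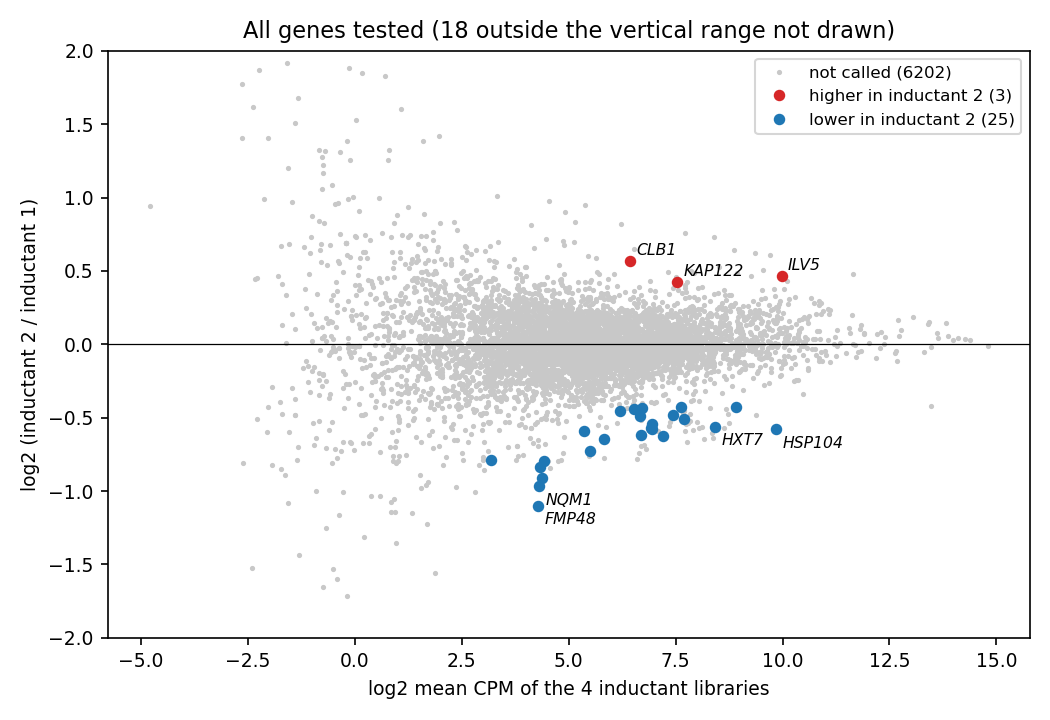
Log2 ratio of inductant 2 to inductant 1 (vertical axis) against the log2 mean CPM of the 4 inductant libraries (horizontal axis), each point a gene. The 25 genes called lower (blue) lie below the bulk of the genes and the 3 called higher (red) above it. The 18 genes with ratios outside the axis are not drawn, and the called gene YLL067C is among them.

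The number of called genes differed with the libraries in the fit, and the cause was not tested. Without an inductant library, both the fitted difference and the spread change. Leaving out replicate 1 of inductant 2 gave 0 called genes, with 373 at an unadjusted p under 0.05, and leaving out its replicate 2 gave 24. Leaving out replicate 1 of inductant 1 gave 1 called gene, and leaving out its replicate 2 gave 4. It was 7 without either deletion library, and 314 and 317 without naive replicate 1 or 2, the pair with the widest spread. With the 4 inductant libraries alone 99 genes were called, 60 of them lower, and with DESeq2 173, of which 111 were lower. Each of the 28 genes kept its direction in every fit that tested it. Because their inductant libraries did not overlap, leaving out a single library could hardly reverse a sign, so the kept directions add no support. On the first principal component of the 4 inductant libraries, which held 46.2% of their variance, inductant 1 lay at -7.87 and -9.24 and inductant 2 at 14.57 and 2.54. Inductant 2 replicate 1 was therefore the library farthest from inductant 1, and the second component (34.1%) separated replicates within both inductants.

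**Figure D2:**
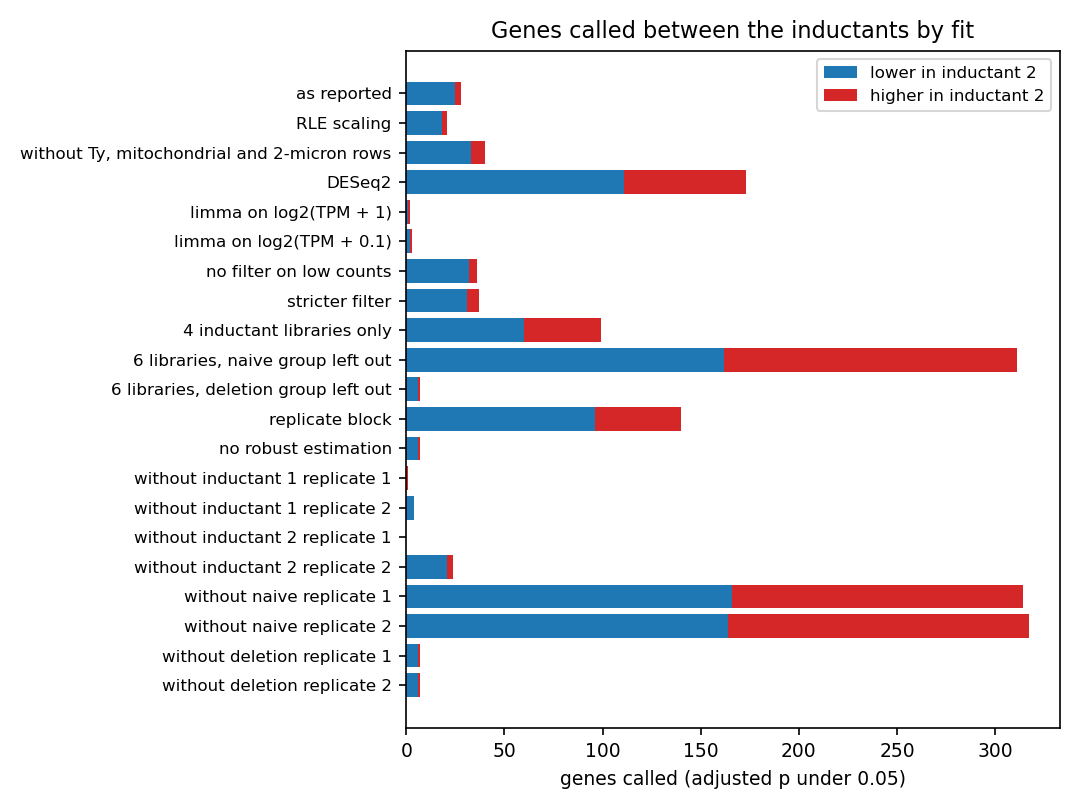
Number of genes called between the inductants at an adjusted p under 0.05 (horizontal axis) in each fit (vertical axis), split into lower (blue) and higher (red) in inductant 2. The bars run from 0 without inductant 2 replicate 1 to 317 without naive replicate 2.

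The stress-response element CCCCT, the site bound by Msn2 and Msn4, occurred in the promoters of many of the lower genes. The window searched was the 250 bases before and the first 50 bases of each coding sequence in the RefSeq genome of build R64, on both strands. CCCCT was found in 12 of the 25 lower genes (48.0%) and in 21.7% of 5734 promoters of genes tested. At least 2 copies were found in 5 of the 25 (20%) and in 2.88% of all promoters, and none of the 3 higher genes had a copy. The heat shock element GAANNTTC was found in 6 of the 25 (24.0%) and in 11.8% of all. These matches are descriptions of sequence and not of binding. The 5 promoters with 2 copies are shown because they belong to the lower genes with the most copies. Each is the stretch of 200 bases that ends 51 bases before the start codon, 5′ to 3′ on the gene's strand, with CCCCT or its reverse complement AGGGG in capitals. Their positions are chrVII:581487-581686 (minus strand) for NQM1, chrXIII:16727-16926 (minus) for MSC1, chrXII:88373-88572 (plus) for HSP104, chrXII:368531-368730 (plus) for AHP1 and chrVII:427998-428197 (minus) for PNC1.
NQM1: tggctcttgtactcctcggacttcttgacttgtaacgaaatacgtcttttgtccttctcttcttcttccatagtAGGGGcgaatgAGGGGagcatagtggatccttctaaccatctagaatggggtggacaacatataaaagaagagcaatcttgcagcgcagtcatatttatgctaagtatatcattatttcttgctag
MSC1: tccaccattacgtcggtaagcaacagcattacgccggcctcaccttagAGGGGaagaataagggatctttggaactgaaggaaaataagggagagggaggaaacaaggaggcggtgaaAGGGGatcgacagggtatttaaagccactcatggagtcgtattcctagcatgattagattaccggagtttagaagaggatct
HSP104: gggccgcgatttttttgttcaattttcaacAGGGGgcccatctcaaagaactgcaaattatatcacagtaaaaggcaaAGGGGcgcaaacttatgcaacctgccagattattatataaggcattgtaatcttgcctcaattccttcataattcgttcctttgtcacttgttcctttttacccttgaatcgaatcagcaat
AHP1: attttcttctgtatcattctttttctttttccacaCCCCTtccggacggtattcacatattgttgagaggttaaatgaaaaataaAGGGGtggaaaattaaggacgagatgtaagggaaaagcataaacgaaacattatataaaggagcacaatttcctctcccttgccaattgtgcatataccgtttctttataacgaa
PNC1: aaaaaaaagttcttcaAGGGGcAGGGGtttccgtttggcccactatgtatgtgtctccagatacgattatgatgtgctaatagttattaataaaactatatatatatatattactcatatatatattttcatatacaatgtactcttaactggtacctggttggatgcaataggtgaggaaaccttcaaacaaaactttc
The copies nearest to each other were in PNC1, beginning 234 and 228 bases before the start codon, and in NQM1, at 176 and 165 bases. In HSP104 they began 220 and 172 bases before the start codon, in AHP1 215 and 165, and in MSC1 202 and 132.

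Regulators of the stress response were among the called genes. MSN4 (YKL062W, chromosome XI, 323228 to 325120), which encodes a transcription factor that binds these elements, had 84.9 and 86.7 CPM in inductant 1 against 60.9 and 64.1 in inductant 2, with naive at 97.7 and 114. The groups did not overlap, and MSN4 was lower in inductant 2 by a log2 difference of -0.46 ± 0.08 (adjusted p = 0.0484, edgeR). Its partner MSN2 was at 67.7 and 68.2 CPM in inductant 1 and at 64.2 and 65.3 in inductant 2 (-0.07, adjusted p = 0.709). XBP1 (YIL101C, chromosome IX, 175307 to 177250), a transcriptional repressor made in stress and starvation, had 24.7 and 27.0 CPM in inductant 1 against 13.6 and 15.4 in inductant 2, with naive at 36.6 and 37.9 and the deletion at 40.6 and 46.5. Its groups did not overlap, with the deletion highest and inductant 2 lowest, and the difference between the inductants was -0.83 ± 0.11 (adjusted p = 0.0173). CIP1, an inhibitor of the G1 cyclin-dependent kinase, stood at 134 and 155 CPM in inductant 1 and 87.2 and 107 in inductant 2 (-0.57 ± 0.10, adjusted p = 0.0451). FMP48 (YGR052W, chromosome VII, 593596 to 594705), annotated as a protein kinase, had 25.5 and 27.7 CPM in inductant 1 against 11.6 and 13.2 in inductant 2, with naive at 38.5 and 45.0. Inductant 2 was lowest in both libraries, at 0.467 of the inductant 1 level (-1.10 ± 0.12, adjusted p = 0.00567). FMP48 lost its call in 4 of 20 other fits, whereas most of the called genes lost theirs in 9 to 11.

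Stress effector genes followed the same direction. Of 48 genes on a general stress list, all tested, 9 were lower in inductant 2 (0.401% of all genes were), 0 were higher, and the median log2 difference was -0.48, against 0.00 over all genes tested. The 9 were NQM1, XBP1, SPI1, GAD1, MSC1, EGO4, ALD4, PNC1 and HSP30. At an unadjusted p under 0.05 31 of 48 were lower and 0 higher, where 8.28% of all genes were lower, and 46 of 48 had a negative difference. The libraries did not overlap, with inductant 2 lower, for 42 of the 48, against 25.2% of all genes. The list was assembled with earlier results of these libraries known, so its direction is no independent evidence. When replicate 1 or replicate 2 of inductant 1 was left out, 0 of the 48 were called, with medians of -0.51 and -0.48. Leaving out replicate 1 of inductant 2 also gave 0, with a median of -0.38, and leaving out its replicate 2 gave 6, with a median of -0.61. Summed over the list, the level was 5122 and 5038 CPM in inductant 1 against 3802 and 4230 in inductant 2, with naive at 5022 and 5638 and the deletion at 6339 and 6582. In bulk RNA, fewer cells that express a gene and less RNA per cell cannot be told apart.

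NQM1 (YGR043C, chromosome VII, 580435 to 581436), a transaldolase paralog expressed as growth slows, had 27.0 and 25.6 CPM in inductant 1 and 13.3 and 13.6 in inductant 2, a log2 difference of -0.97 ± 0.13 (adjusted p = 0.0173). The naive libraries were at 26.6 and 35.1 CPM and the deletion at 52.4 and 53.1, so only inductant 2 lay below naive in both libraries. SPI1 (YER150W, chromosome V, 468370 to 468816), a cell wall protein of stationary phase, had 55.2 and 58.2 CPM in inductant 1 and 30 and 38.7 in inductant 2 (-0.72 ± 0.11, adjusted p = 0.0265). GAD1, glutamate decarboxylase, stood at 124 and 126 CPM in inductant 1 and 75.2 and 88.0 in inductant 2 (-0.62 ± 0.10, adjusted p = 0.0309). MSC1, known from meiotic sister-chromatid recombination, had 145 and 149 CPM against 94.0 and 103 (-0.58 ± 0.09, adjusted p = 0.0309). PNC1, the nicotinamidase that feeds NAD salvage, had 197 and 205 CPM against 132 and 157 (-0.48 ± 0.09, adjusted p = 0.0495). HSP30, a regulator of the plasma membrane proton pump, had 116 and 124 CPM against 82.4 and 88.5 (-0.49 ± 0.09, adjusted p = 0.0495). EGO4, another gene of the list, had 11.6 and 11.5 CPM against 6.72 and 6.65 (-0.79 ± 0.13, adjusted p = 0.0385). For each of these 7 genes both libraries of inductant 2 lay below both of inductant 1. AHP1, a thiol peroxidase and the only called gene of 22 oxidative stress genes, had 528 and 584 CPM against 397 and 432 (-0.42 ± 0.07, adjusted p = 0.0417). Of all genes, 0.401% were called lower. At an unadjusted p under 0.05, 4 of the 22 were lower and 0 higher (8.28% and 7.19% of all genes). HSP12, a small membrane heat shock protein, was at 39.1 and 29.7 CPM in inductant 1 and 19.1 and 20.4 in inductant 2 but did not pass (-0.80, adjusted p = 0.051).

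**Figure D3:**
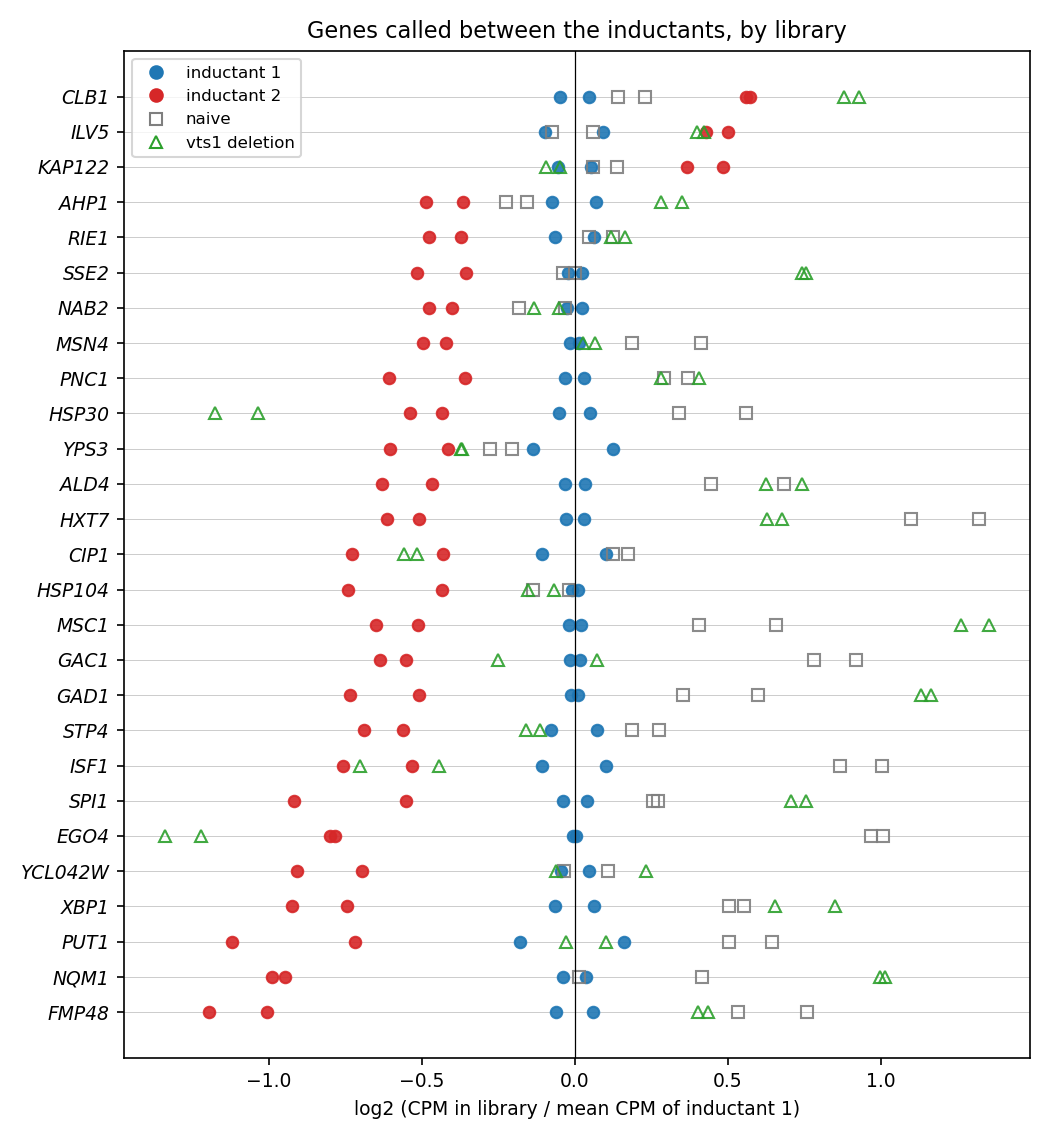
Log2 of the CPM in each library over the mean CPM of inductant 1 (horizontal axis) for the called genes except YLL067C (vertical axis), with 2 points per group. Inductant 2 (red) and inductant 1 (blue) do not overlap for any gene, while the naive and deletion libraries lie on either side of them depending on the gene.

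Both inductants were also set against naive in the same fit, and these comparisons share the naive libraries. The general stress list had a median log2 difference from naive of -0.45 in inductant 1 and -1.003 in inductant 2. For XBP1 the values were -0.53 and -1.36, for GAC1 -0.85 and -1.44, and for HXT7 -1.21 and -1.77. For HSP104, by contrast, inductant 1 was at 0.08 (adjusted p = 0.669) and inductant 2 at -0.50 (adjusted p = 0.00789). HSP104 was not alone in this. SSE2 was at 0.02 and -0.41, NAB2 at 0.11 and -0.33, AHP1 at 0.19 and -0.23 and YPS3 at 0.24 and -0.26. None of these inductant 1 differences passed. Most of the called lower genes had a negative difference of inductant 1 from naive. Of all genes tested, 274 (4.4%) were called between inductant 1 and naive, with 1.2% higher and 3.19% lower. Between inductant 2 and naive 563 (9.04%) were called, with 3.24% higher and 5.79% lower.

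Of 24 chaperone genes 2 were called, both lower (0.401% of all genes were). HSP104 (YLL026W, chromosome XII, 88623 to 91349) encodes the disaggregase that most amyloid yeast prions need for propagation. It had 1109 and 1095 CPM in inductant 1 against 660 and 817 in inductant 2, with naive at 1003 and 1088 and the deletion at 992 and 1051. Inductant 2 lay below the 6 other libraries, and its difference from inductant 1 was -0.58 ± 0.09 (adjusted p = 0.0385). SSE2, an Hsp110 exchange factor for Hsp70, had 123 and 119 CPM in inductant 1 against 84.6 and 94.4 in inductant 2, with naive at 121 and 118 (-0.43 ± 0.07, adjusted p = 0.0385). HSP82, which encodes the inducible Hsp90, stood at 501 and 515 CPM in inductant 1 against 308 and 394 in inductant 2, with naive at 352 and 319. For HSP82 it was thus inductant 1 that lay above naive, and the difference between the inductants did not pass (-0.53, adjusted p = 0.0641). The chaperone list as a whole had a median of -0.10, with 9 members lower and 1 higher at an unadjusted p under 0.05 (8.28% and 7.19% of all genes). Among 14 genes of yeast prion proteins and their maintenance, HSP104 was the called member (0.401% of all genes were called lower). SUP35, which encodes the protein of the prion [PSI+], was at 412 and 419 CPM in inductant 1 and 415 and 405 in inductant 2, and RNQ1 at 190 and 202 against 186 and 187.

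Reserve-carbohydrate genes mostly had negative differences, though few passed. Of 22 glycogen and trehalose genes, 1 was called lower (0.401% of all genes were), and 14 were lower and 0 higher at an unadjusted p under 0.05 (8.28% and 7.19% of all genes). The median difference was -0.34. GAC1 (YOR178C, chromosome XV, 667860 to 670241), the phosphatase subunit that activates glycogen synthase, had 49.9 and 48.8 CPM in inductant 1 against 31.7 and 33.7 in inductant 2, with naive at 84.7 and 93.3. The 3 groups did not overlap, and the inductants differed by -0.59 ± 0.11 (adjusted p = 0.0495). Glycogen phosphorylase (GPH1) was at 254 and 254 CPM in inductant 1 and 164 and 185 in inductant 2 (-0.54, adjusted p = 0.0592). The glycogen synthase gene GSY2 was at 289 and 318 against 190 and 230 (-0.53, adjusted p = 0.0781). The trehalose phosphatase gene TPS2 was at 448 and 530 against 326 and 378 (-0.47, adjusted p = 0.0781). None of these 3 passed. Their inductant libraries did not overlap, as was the case, with inductant 2 lower, for 25.2% of all genes. Without inductant 2 replicate 1 the list median was -0.22 and 7 members had an unadjusted p under 0.05.

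Of 14 hexose transporter genes 1 was called, lower in inductant 2 (0.401% of all genes were). This was HXT7 (YDR342C, chromosome IV, 1154216 to 1155928), a high-affinity glucose transporter. It had 400 and 416 CPM in inductant 1 against 267 and 287 in inductant 2, with naive at 874 and 1019 and the deletion at 631 and 653. The 4 groups held 4 separate levels, and inductant 2 was below inductant 1 by -0.56 ± 0.08 (adjusted p = 0.0227). HXT6 shares most of its sequence with HXT7, with 95.7% of the 31-base words of HXT7 found in other rows, so the split of reads between the pair is uncertain. HXT6 itself was at 89.4 and 122 CPM in inductant 1 and 75.1 and 84.4 in inductant 2 (-0.41, adjusted p = 0.702). HXT3, a low-affinity transporter, was at 2100 and 2172 CPM against 2098 and 1959 (-0.07, adjusted p = 0.673), and HXT1, for use in high glucose, at 161 and 177 against 189 and 202 (0.21, adjusted p = 0.238). Of 20 genes of glucose sensing and repression 0 were called, and the median was -0.16. At an unadjusted p under 0.05, 8 were lower and 0 higher (8.28% and 7.19% of all genes). The repressor gene MIG2 had the smallest p of that list (-0.53, adjusted p = 0.051), and MTH1, which holds back hexose transporter expression, was at 113 and 139 CPM against 70.8 and 80.1 (-0.74, adjusted p = 0.0752). YCL042W, an uncharacterised row called lower (26.6 and 28.3 against 17.0 and 14.6 CPM, -0.80 ± 0.13, adjusted p = 0.0385), overlaps the glucokinase gene GLK1. GLK1 was at 749 and 796 CPM against 493 and 614 (-0.48, adjusted p = 0.112), and reads of the overlap cannot be assigned to YCL042W with certainty.

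Genes of mitochondrial metabolism were among the lower ones too. ALD4, the main mitochondrial aldehyde dehydrogenase, had 144 and 151 CPM in inductant 1 against 95.2 and 107 in inductant 2, with naive at 201 and 237 (-0.55 ± 0.09, adjusted p = 0.0385). PUT1, proline oxidase, had 23.9 and 30.3 CPM, 12.5 and 16.5, and 38.4 and 42.3 in the same order (-0.91 ± 0.15, adjusted p = 0.0385). ISF1, a gene linked to respiratory growth, had 64.5 and 74.6 CPM, 41.2 and 48.1, and 127 and 139 (-0.64 ± 0.11, adjusted p = 0.0484). All 3 showed the order naive, inductant 1, inductant 2 from high to low. Among 56 nuclear genes of respiration 0 were called, 23 were lower and 1 higher at an unadjusted p under 0.05 (8.28% and 7.19% of all genes), and the median was -0.20. HAP4, the limiting activator of respiratory genes, was at 245 and 294 CPM in inductant 1 against 177 and 199 in inductant 2, with naive at 447 and 491 (-0.52, adjusted p = 0.051). The internal NADH dehydrogenase gene NDI1 was at 81.6 and 82.2 CPM against 57.1 and 66.7 (-0.40, adjusted p = 0.0684). The 7 tested protein genes of the mitochondrial genome had a median of 0.26 in the other direction, with 0 called. It was 0.087 without inductant 1 replicate 2 and 0.36 without its replicate 1. Of these, ATP6 was at 37.5 and 35.0 CPM against 45.0 and 48.98 (0.37, adjusted p = 0.112) and COX1 at 901 and 836 against 843 and 869.

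The other called genes that were lower in inductant 2 belonged to no single group. STP4 (YDL048C, chromosome IV, 366739 to 368211), a zinc-finger protein related to the amino acid sensors' effectors Stp1 and Stp2, had 170 and 188 CPM in inductant 1 against 111 and 121 in inductant 2, with naive at 204 and 216 (-0.63 ± 0.08, adjusted p = 0.0106). NAB2, a nuclear poly(A)-RNA-binding protein, had 104 and 108 CPM against 76.2 and 80.2 (-0.44 ± 0.08, adjusted p = 0.0385). RIE1, another RNA-binding protein, had 217 and 237 CPM against 163 and 175 (-0.42 ± 0.07, adjusted p = 0.0385). The deletion libraries were at 96.6 and 102 CPM for NAB2 and at 246 and 254 for RIE1, above inductant 2 in each case. YPS3, a cell surface aspartyl protease, had 223 and 268 CPM in inductant 1 against 162 and 184 in inductant 2, with naive between them at 202 and 213 (-0.51 ± 0.09, adjusted p = 0.0495). Of 28 genes of nitrogen catabolism PUT1 was the called member (0.401% of all genes were called lower). At an unadjusted p under 0.05, 9 of the 28 were lower and 0 higher (8.28% and 7.19% of all genes). AGP1, an amino acid permease, was at 124 and 131 CPM against 69.8 and 87.7 (-0.69, adjusted p = 0.051). Of 39 cell wall genes SPI1 was the called member (0.401% of all genes were called lower). Of the 39, 14 were lower and 1 higher at an unadjusted p under 0.05. PIR3 was at 7.11 and 6.53 CPM against 3.48 and 3.47 (-0.97, adjusted p = 0.0675). Of 21 genes of cyclic AMP signalling MSN4 was the called member (0.401% of all genes were called lower). At an unadjusted p under 0.05, 6 were lower and 0 higher (8.28% and 7.19% of all genes). The phosphodiesterase gene PDE2 gave 0.04 ± 0.08 (adjusted p = 0.867), with a 95% interval of -0.14 to 0.22.

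The 3 genes higher in inductant 2 were CLB1, ILV5 and KAP122. CLB1 (YGR108W, chromosome VII, 703636 to 705051), a mitotic cyclin, had 72.3 and 67.7 CPM in inductant 1 against 104 and 103 in inductant 2, with naive at 77.3 and 82.0. Inductant 2 stood above inductant 1 and naive but below the deletion, at 129 and 133, and its difference from inductant 1 was 0.57 ± 0.07 (adjusted p = 0.0106). ILV5 (YLR355C, chromosome XII, 838066 to 839253), an enzyme of branched-chain amino acid synthesis, had 903 and 792 CPM in inductant 1 against 1198 and 1141 in inductant 2, with naive at 804 and 882 (0.46 ± 0.08, adjusted p = 0.0385). KAP122, a nuclear transport receptor, had 165 and 153 CPM, 222 and 204, and 165 and 174 in the same order (0.43 ± 0.07, adjusted p = 0.0385). For ILV5 the libraries of inductant 1 spanned those of naive, for KAP122 they lay just below them, and inductant 2 lay above naive in both cases. The G2/M list of 28 genes had a median of 0.17, with CLB1 called (0.0482% of all genes were called higher), and 8 members higher and 0 lower at an unadjusted p under 0.05 (7.19% and 8.28% of all genes). CDC5, the polo kinase gene, was at 63.0 and 58.3 CPM against 82.4 and 77.4 (0.40, adjusted p = 0.051), and CLB2 at 46.4 and 38.2 against 51.04 and 50.97 (0.27, adjusted p = 0.232). The G1/S list of 37 genes had a median of 0.00 and 0 called, with 3 higher and 0 lower at an unadjusted p under 0.05. Its smallest p was that of RNR1, a subunit of ribonucleotide reductase, at 686 and 693 CPM against 834 and 769 (0.22, adjusted p = 0.209). Of 15 branched-chain and leucine genes ILV5 was the called member (0.0482% of all genes were called higher), and the list median was 0.08. At an unadjusted p under 0.05, 4 of the 15 were higher and 0 lower.

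Ribosomal protein genes lay slightly and broadly higher in inductant 2. None of the 135 tested was called, yet 105 were higher and 0 lower at an unadjusted p under 0.05, where 7.19% of all genes were higher. The median log2 difference was 0.23, and 133 of the 135 were positive. The libraries did not overlap, with inductant 2 higher, for 128 of the 135, against 24.1% of all genes. Large and small subunit genes had medians of 0.23 and 0.21. Summed over the genes, the level was 74057 and 74302 CPM in inductant 1 against 91572 and 83179 in inductant 2, with naive at 96843 and 87232 and the deletion at 86975 and 86259. Inductant 1 was therefore the group that stood lowest, and the medians against naive were -0.29 in inductant 1 and -0.08 in inductant 2. RPL3, of the large subunit, was at 2630 and 2712 CPM in inductant 1 against 3996 and 3432 in inductant 2, with naive at 4493 and 3520 (0.48, adjusted p = 0.104). In the small subunit list RPS24B had the smallest p, at 171 and 184 CPM in inductant 1 and 232 and 219.9 in inductant 2 (0.35, adjusted p = 0.0659). RPL18B had the smallest p of the large subunit list, at 55.5 and 53.4 CPM in inductant 1 and 111 and 81.1 in inductant 2 (0.82, adjusted p = 0.0691). Most ribosomal protein genes exist as near-identical pairs that share reads. RPL18B shares 29.9% of its 31-base words with other rows, and RPS24B 53.7%. The shift was smaller without inductant 2 replicate 1, with a median of 0.16 and 29 genes at an unadjusted p under 0.05. With the naive group left out of the fit, 57 of the 135 were called higher. Ribosome biogenesis genes (88) had a median of 0.12, with 0 called, and 8 higher (7.19% of all genes were) and 0 lower at an unadjusted p under 0.05. Without inductant 2 replicate 1 the median was 0.0089, and without its replicate 2 it was 0.22. The member with the smallest p was UTP22, a ribosomal RNA processing protein, at 201 and 199.7 CPM against 266 and 235 (0.32, adjusted p = 0.0926). Their summed level overlapped between the inductants, at 16485 and 17080 CPM against 19189 and 16763.

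**Figure D4:**
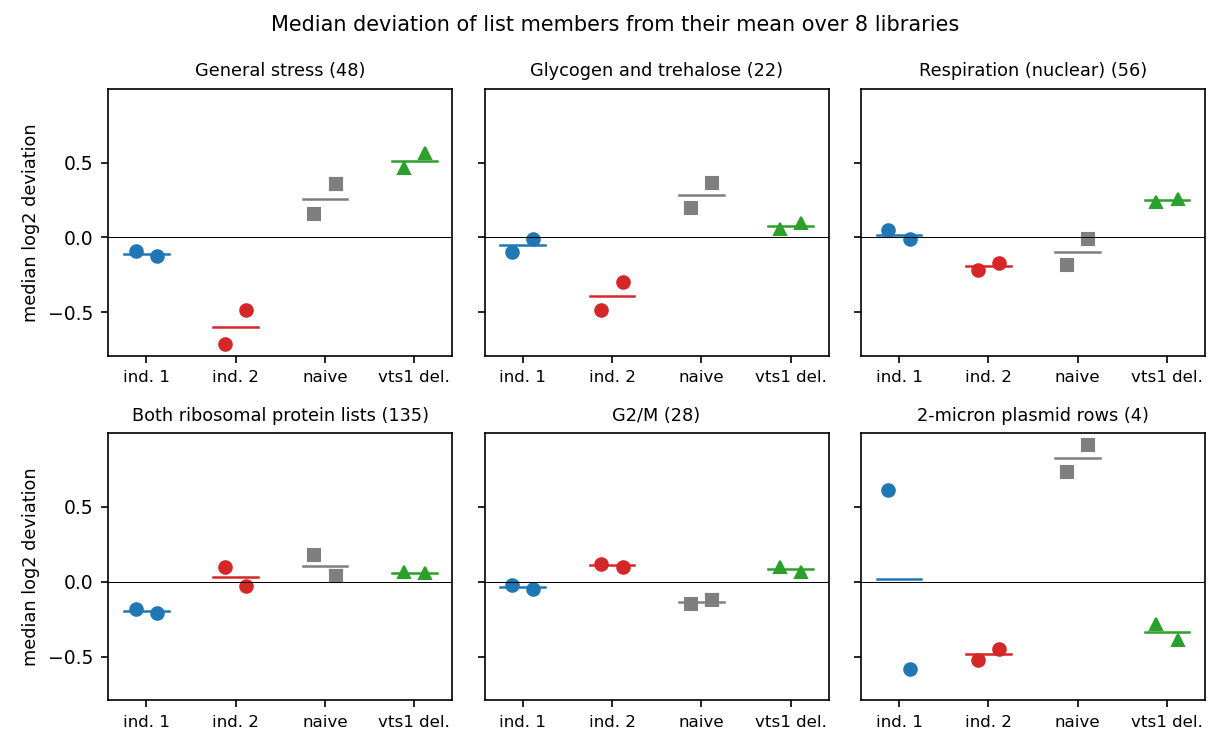
Median log2 deviation of the members of 6 gene lists from their own mean over the 8 libraries (vertical axis) in each library, with 2 points and their mean as a bar per group (horizontal axis). General stress and glycogen genes are lowest in inductant 2, ribosomal protein genes are lowest in inductant 1, and the 2-micron rows split the replicates of inductant 1.

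Some of the other lists had negative medians. Autophagy and vacuole genes (19) had -0.17, with 8 lower and 0 higher at an unadjusted p under 0.05 (8.28% and 7.19% of all genes). The smallest p among them was that of AMS1, the vacuolar alpha-mannosidase, at 239 and 239 CPM in inductant 1 against 161 and 188 in inductant 2 (-0.45, adjusted p = 0.0752). Galactose and maltose genes (14) also had -0.17, with 3 lower, and MAL11, an alpha-glucoside permease, was at 23.4 and 26.8 CPM against 16.9 and 18.6 (-0.50, adjusted p = 0.112). Aldehyde and acetate genes (11) had -0.34 with 5 lower and 1 higher. ALD4 was the called member (0.401% of all genes were called lower). The list as a whole ranged over the other fits from -0.49 to -0.20. The proteasome list (37) had -0.06, and PRE8, a subunit of the core particle, was at 88.2 and 95.4 CPM against 78.1 and 75.5 (-0.26, adjusted p = 0.138).

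Other lists had positive medians, opposite in sign to the stress list, with 0 called in each. At an unadjusted p under 0.05, 7.19% of all genes were higher and 8.28% lower. The 5 tested MATa-specific genes had 0.21, with 2 higher and 0 lower at that threshold, and a range over the other fits of 0.11 to 0.26. STE2, the alpha-factor receptor gene, had the smallest p of that list and of the pheromone response list (30 genes, median 0.07), at 196 and 181 CPM against 243 and 226 (0.32, adjusted p = 0.0768). Phosphate genes (25) had 0.12 with 4 higher and 0 lower, and a range of 0.048 to 0.17 over the other fits. VTC3, of the vacuolar polyphosphate polymerase complex, was at 286 and 309 CPM against 392 and 361 (0.34, adjusted p = 0.0768). The purine and pyrimidine list (27) had 0.12 with 7 higher and 2 lower, and a range of 0.049 to 0.21. IMD2, an IMP dehydrogenase gene, was at 132 and 136 CPM against 195 and 182 (0.49, adjusted p = 0.051).

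The lists that follow had medians between -0.07 and 0.09, 0 called and at most 7 members at an unadjusted p under 0.05 (15.5% of all genes). Some short lists were above that share. The COS family (12) had 2 higher and 1 lower, and the glycolysis and fermentation list (27) 4 and 2. Daughter cell separation (24) had 3 and 1, ester and fusel alcohol genes (17) 3 and 0, and histones (11) 2 and 0. In each list that follows the member with the smallest p is given, and none passed. Among amino acid synthesis genes and GCN4 (56) it was LYS20, a homocitrate synthase gene, at 84.3 and 89.8 CPM against 123 and 105 (0.39, adjusted p = 0.112), with 46.5% of its 31-base words shared with other rows. BNA4, of NAD synthesis from tryptophan, in the vitamin list (30), was at 39.8 and 37.4 CPM against 51.95 and 48.5 (0.38, adjusted p = 0.0945). PCK1, of gluconeogenesis, in the glycolysis and fermentation list (27), was at 24.98 and 22.6 CPM against 14.6 and 15.5 (-0.65, adjusted p = 0.148). EEB1, of ethyl ester synthesis, in the ester and fusel alcohol list (17), was at 208 and 179 CPM against 279 and 268 (0.50, adjusted p = 0.144).

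DAN1, an anaerobic cell wall mannoprotein gene on the ergosterol list (34), rested on 3 and 6 against 32 and 17 counts (adjusted p = 0.0949). ANB1, the anaerobic eIF5A gene among translation factors (39), was at 8.12 and 7.42 CPM against 12.1 and 10.8 (0.56, adjusted p = 0.16). MGA1, related to heat shock factor, in the filamentous growth list (22), was at 28.7 and 43.1 CPM against 19.7 and 21.98 (-0.79, adjusted p = 0.143). MRS4, a mitochondrial iron carrier, in the iron and copper list (37), was at 22.5 and 26.9 CPM against 17.4 and 20.1 (-0.40, adjusted p = 0.166). IME4, the mRNA adenosine methyltransferase of meiosis (23 genes), was at 55.6 and 57.7 CPM against 41.7 and 48.8 (-0.33, adjusted p = 0.148).

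In the zinc list (18) ZRG8 gave a log2 difference of -0.30 (adjusted p = 0.164), and in the sulfur list (33) MET30, of the ubiquitin ligase that restrains methionine synthesis, -0.21 (adjusted p = 0.24). ELO2, a fatty acid elongase gene among 27 lipid genes, gave 0.24 (adjusted p = 0.182), and PDR16, a lipid transfer protein gene among 16 of multidrug resistance, 0.20 (adjusted p = 0.252). The histone gene HTA2 (11 genes) gave 0.22 (adjusted p = 0.282) and COS10 (12 genes of the COS family) 0.35 (adjusted p = 0.131). RTG3, a transcription factor of the retrograde response (12 genes), gave -0.18 (adjusted p = 0.401). The low-level genes PAU23 (8 seripauperins) and MF(ALPHA)2 (3 MATalpha-specific genes) gave -0.53 (adjusted p = 0.484) and -0.43 (adjusted p = 0.587). The lists of amino acid permeases (23) and of daughter cell separation (24) had AGP1 and PIR3, given above, as the members with the smallest p.

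Vts1 and the genes of deadenylation and decapping (21) had a median of 0.00, with VTS1 the 1 member at an unadjusted p under 0.05. CCR4, the main deadenylase gene, was at 216 and 226 CPM against 209 and 210, and POP2 at 63.1 and 68.3 against 63.2 and 65.4. YIR016W, reported as a Vts1 target, was at 36.2 and 45.3 CPM against 31.9 and 33.3 (-0.32 ± 0.11, adjusted p = 0.202).

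**Figure D5:**
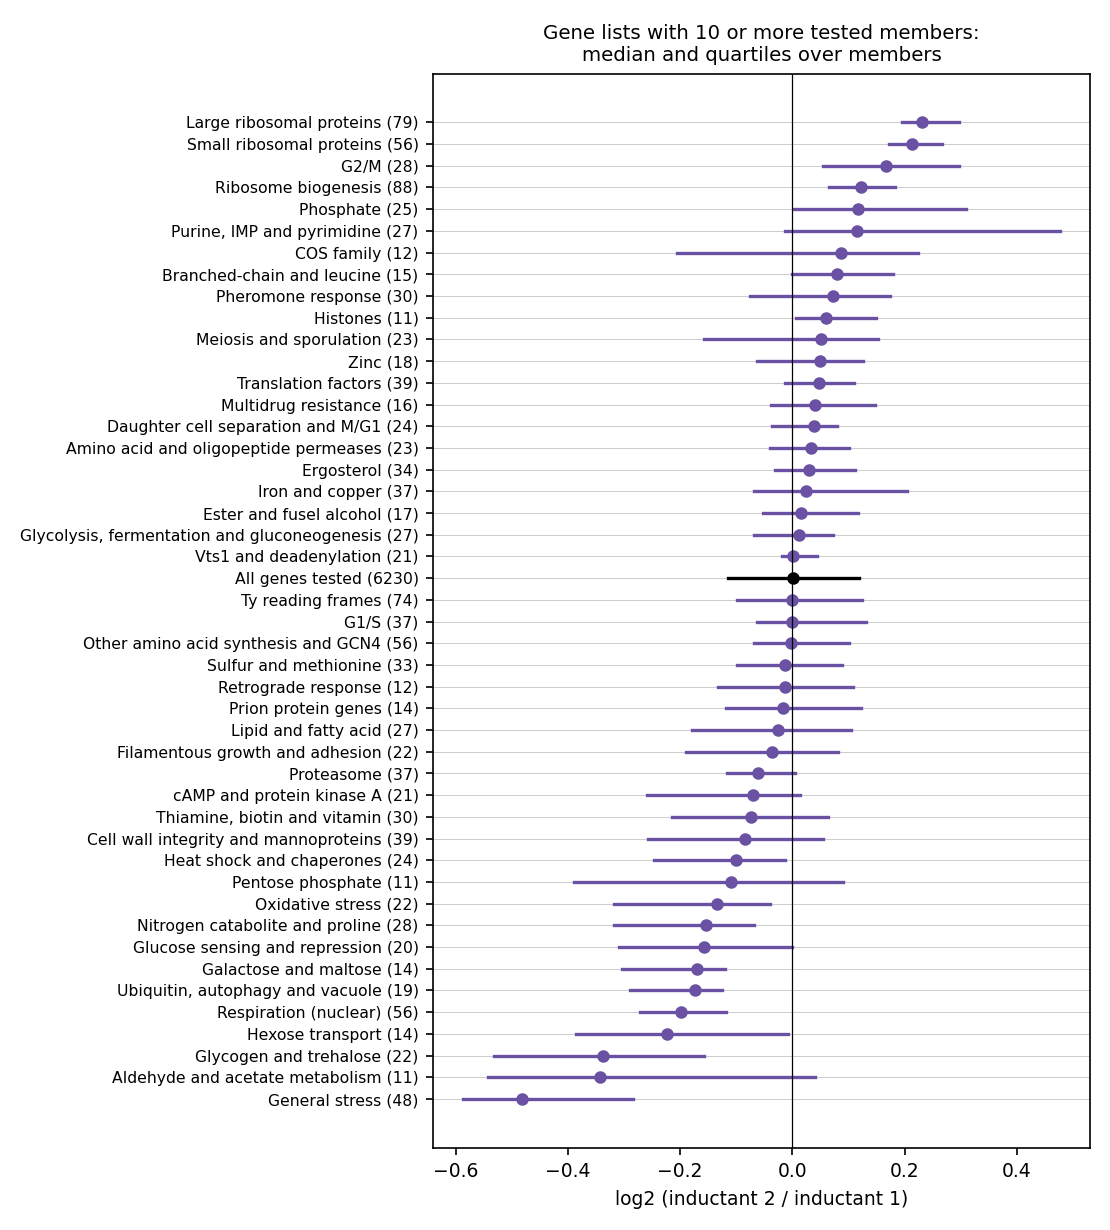
Median (point) and quartiles (line) of the log2 ratio of inductant 2 to inductant 1 over the tested members of each gene list (vertical axis, number of members in brackets). The general stress list is at -0.48, the ribosomal protein lists are at 0.21 and 0.23, and all genes (black) are at 0.00.

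No chromosome as a whole differed between the inductants. The median log2 difference of the 16 nuclear chromosomes lay between -0.04 and 0.01. The called genes were spread out: no 2 neighbouring tested genes were called in the same direction, and 2 of the 28 lay within 25 kb of a chromosome end, against 4.73% of genes with coordinates. Across 5538 genes, the log2 difference had a Spearman correlation of -0.21 with the GC content of the coding sequence, and across 5841 genes of -0.03 with coding length and 0.03 with mean level. Genes are not independent replicates and share these 4 libraries, and the part of GC content in the results was not tested.

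The 4 genes of the 2-micron plasmid, the native multicopy plasmid of yeast, separated the replicates of inductant 1 rather than the inductants. Their summed level was 1761 and 761 CPM in inductant 1 against 800 and 842 in inductant 2, with naive at 1842 and 2140 and the deletion at 946 and 882. Inductant 1 replicate 1 was near the naive libraries, and replicate 2 was at the level of inductant 2 and the deletion. The median difference between the inductants was -0.62 with the adjusted p of the 4 genes between 0.488 (R0030W) and 0.606, and without inductant 1 replicate 1 it was 0.09.

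YLL067C (chromosome XII, 585 to 4301), a Y′ helicase row next to a telomere, had the largest fitted difference of the called genes. It held 385 counts over the 2 libraries of inductant 1 and 1 count over those of inductant 2. The scaled ratio of inductant 2 to inductant 1 was 0.283%, and its exact 95% interval, for counting error alone, ran from 0.00716% to 1.59% (adjusted p = 0.00312). Naive and deletion libraries were at 0. Its sequence is a near-copy of others: 98.9% of its 31-base words occur in other rows, so its counts rest on how kallisto divided reads among copies. The 32 rows that share words with it, itself included, summed to 1925 and 2099 CPM in inductant 1 against 1815 and 1918 in inductant 2, with naive at 1398 and 1591 and the deletion at 1627 and 1567. The family as a whole thus differed little between the inductants, while YRF1-6, another Y′ row, was at 58.9 and 108 CPM against 1.51 and 2.18 (-5.51 ± 0.90, adjusted p = 0.112). The 74 tested rows of Ty retrotransposons had a median of 0.00 and 0 called. At an unadjusted p under 0.05, 1 was higher and 2 were lower (7.19% and 8.28% of all genes). The smallest p was that of YBR012W-A, a gag row whose 31-base words all occur in other rows, with a log2 difference of -0.69 (adjusted p = 0.112).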

How the data were processed

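Titles placed the 8 libraries in 4 groups of 2 biological replicates. Per the submitters' processing notes, the authors used kallisto and genome build R64, with the version, sequencing layout and strand use not given in the sources used here. Per the file headers, the deposited values are estimated counts (expected counts, which need not be whole) and TPM for 6713 coding rows. Copies with near-identical sequence share reads, overlapping genes cannot be told apart, and TPM from the authors rests on the same assignment.

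The RefSeq annotation of R64 gave names and positions to 6026 rows by systematic name, and the other 687 kept their systematic names. Estimated counts were rounded and tested in edgeR 4.0.16 (R 4.3.3) with TMM scaling, filterByExpr by group (6230 genes kept) and the robust two-sided quasi-likelihood test, with all 8 libraries, 1 mean per group and 4 residual degrees of freedom. The common biological coefficient of variation was 0.096. P-values were adjusted by Benjamini-Hochberg over all genes tested, and genes with an adjusted p under 0.05 were called. A log2 difference is given with its standard error, and every log2 difference is inductant 2 over inductant 1 unless stated. CPM are TMM-scaled and depend on transcript length, so levels are compared within a gene. Depth was 18431474 to 27501966 counts, a floor of 3 counts is 0.109 to 0.163 CPM, and intervals from counts cover counting error only.

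All genes called between the inductants are named, with the check genes VTS1, YIR016W, PDE2, LEU2, MET17, URA3 and HIS3, and in lists without a called gene the member with the smallest p. HIS3, partly deleted in this background, gave -0.38 ± 0.24 (adjusted p = 0.524). Other named genes were chosen after their values were seen. The gene lists and the comparison were chosen with earlier results of these data known; ARG5,6, DUR1,2, ADE5,7 and IMD1 of the lists found no row. Lists are described by counts and medians, with no set test. Alternatives used DESeq2 1.42.0, limma 3.58.1 on log2(TPM + 1) and log2(TPM + 0.1), RLE scaling, other filters and row sets, a replicate block, fewer groups and single libraries left out. The test was checked on simulated data.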

Additional observations from a re-analysis of the deposited data

How the results depend on the processing

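All 28 called genes kept their direction in every alternative that tested them, which the lack of overlap between their libraries all but fixed in advance. The number called did not hold. With 28 called (25 lower, 3 higher in inductant 2), RLE scaling gave 21 and removing the filter 36. The stricter filter gave 37, of which 6 were higher, and leaving out Ty, mitochondrial and 2-micron rows 40, of which 7 were higher. DESeq2 gave 173 (111 lower, 62 higher), limma on log2(TPM + 1) 2 (1 lower, 1 higher) and on log2(TPM + 0.1) 3 (2 lower, 1 higher). The 4 inductant libraries alone gave 99 (60 lower, 39 higher), the fit without the naive group 311 (162 lower, 149 higher), and those without the deletion group or without robust estimation 7 each (6 lower, 1 higher). Leaving out single libraries gave 0 to 317 called, 0 to 166 lower and 0 to 153 higher. The 0, without inductant 2 replicate 1 in edgeR, stood beside 373 genes at an unadjusted p under 0.05. With a replicate block 140 genes were called (96 lower, 44 higher), including all 28. The labels tie no replicate number to a shared day or batch, and deviations of same-numbered libraries correlated at -0.20 between the inductants and at -0.15 to 0.20 for the other pairs of groups, so the numbers do not establish a pairing.

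The general stress median ranged from -0.61 to -0.38 when libraries were left out. The large ribosomal protein median was 0.16 with either TPM setting and 0.17 to 0.29 with libraries left out, and the small subunit median 0.14 to 0.28. With libraries left out, the 2-micron median ran from -1.10 to 0.0938, R0010W from -1.12 to 0.0802, R0020C from -1.09 to 0.107 and R0040C from -1.06 to 0.153; the positive values are those without inductant 1 replicate 1. The log2 fold change of PDE2, near 0, was -0.0279 with log2(TPM + 1), -0.0284 with log2(TPM + 0.1) and -0.0348 to 0.113 with libraries left out, lowest without inductant 2 replicate 1. The cause of these changes was not tested.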
